A study of Mus musculus with 9 samples.

Results

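The genes examined here encode the machinery that turns a ligand-bound Notch receptor into a nuclear signal: 4 kinds of γ-secretase subunit (Psen2, Ncstn, Aph1a, Aph1b and Psenen), the sheddases Adam10 and Adam17, and the nuclear factors Rbpj and Maml1. They were chosen by name for their place in the pathway, with earlier results of these data known, and all 9 were found among the 18193 genes tested. Every probe set that the platform annotation assigns to them was used, 24 of 45037 that are not array controls. A probe set is a group of short oligonucleotides on the array that gives 1 value for a transcript, and 1 of the 24 is assigned to Aph1b and its paralog Aph1c together.

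Expression was measured on 9 single-colour oligonucleotide arrays. LSK cells (Lineage- Sca-1+ c-Kit+), a bone marrow fraction rich in blood stem cells and their first progeny, were purified from wild-type C57/Bl6 mice and kept for 3 days on OP9 stroma, a mouse bone marrow stromal line. There were 3 arrays from OP9-GFP, the control stroma, 3 from OP9-DL1, which displays Delta-like 1 to Notch receptors, and 3 from the same ligand stroma given 1 µM CompoundE, an inhibitor of γ-secretase. The cells collected were those not attached to the dish, and the labels name no vehicle for the cultures without CompoundE. The feeder can contribute RNA to the collected cells. The labels name no separate mice or cultures behind the replicates, and every p-value below therefore reflects the spread of these arrays alone, possibly a technical one.

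As background, a ligand-bound Notch receptor is first cut outside the membrane by an ADAM sheddase, for which ADAM10 is the main enzyme in ligand-induced signalling. γ-Secretase, a complex of a catalytic presenilin with nicastrin, APH1 and PEN2, then cuts within the membrane and frees the intracellular domain. That domain joins the DNA-binding protein RBPJ and a Mastermind co-activator on target genes. Without it RBPJ sits with co-repressors. In early blood cells this pathway is best known for starting T cell development. CompoundE inhibits the enzyme itself, and the transcript levels below are no measure of that enzyme's activity.

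The deposited values are on a log2 scale, and all differences below are log2 differences of group means with the standard error (SE) of the fit. Each gene was represented by its brightest probe set, and a call means a limma p-value below 0.05 after Benjamini-Hochberg adjustment over all 18193 genes. For the other probe sets of a gene the adjustment was over all 45037 probe sets. The highest value among the array's 27 bacterial control probe sets was 3.64, and values up to it are called background.

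Measured in this way, the γ-secretase genes Aph1a, Aph1b and Ncstn were lower on OP9-DL1 than on OP9-GFP and higher with CompoundE than without it. Adam17 gave the same calls by smaller amounts, and the brightest probe sets of Rbpj and Maml1 differed by at most 0.22 in any comparison. On OP9-DL1, 5 of the 9 genes were lower than on OP9-GFP (Aph1b, Aph1a, Ncstn, Adam17 and Rbpj), where 16.7% of all genes were lower. In the other direction limma called 0 of 9, and 0 also had an unadjusted p under 0.05, where 15.9% of all genes were called higher. With CompoundE, 6 of 9 were higher than on OP9-DL1 alone (Aph1b, Ncstn, Psen2, Aph1a, Adam17 and Psenen), where 25.1% of all genes were higher, and 1 (Adam10) was lower, where 21.6% were. Over the 24 probe sets, 2 were higher and 8 lower on OP9-DL1, where 12.1% and 12.8% of all probe sets were, and 13 were higher and 3 lower with CompoundE, where 19.1% and 20.0% were. The median difference over the 9 genes was -0.18 on OP9-DL1, beside -0.02 over all genes, and 0.34 with CompoundE, beside 0.08. By the brightest probe sets these are modest changes: Aph1b, with the largest, differed 1.91-fold with CompoundE. Of all genes 9.42% were called with a change of at least 2-fold in that comparison. The probe set shared by Aph1b and Aph1c, which represents no gene here, differed 4.09-fold in it. Both comparisons use the same 3 OP9-DL1 arrays, so an opposite sign in them is not independent evidence. In bulk samples like these, fewer cells of a type and less RNA per cell cannot be told apart.

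**Figure D1:**
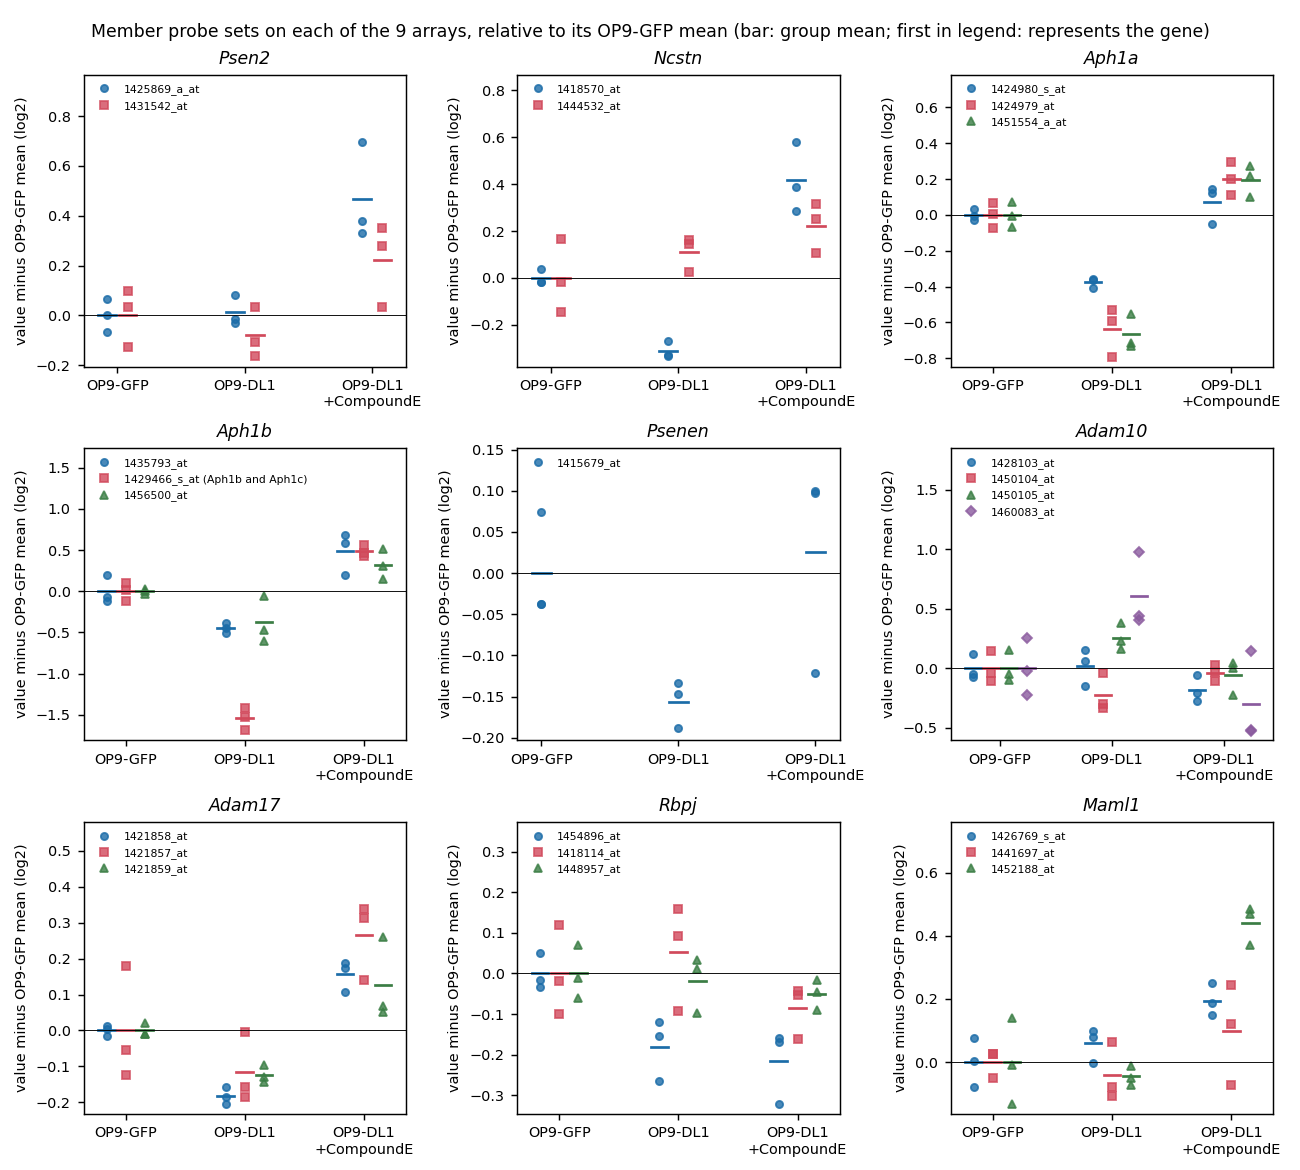
Each panel plots 1 gene, with its probe sets in different colours and marks, as the deposited log2 value on each array minus that probe set's mean on OP9-GFP (vertical axis) in the 3 groups (horizontal axis). Bars are group means. The 3 Aph1a probe sets and the 3 probe sets of Aph1b lie lower on OP9-DL1 than on OP9-GFP, while 2 of the 3 Rbpj probe sets overlap across groups.

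Among the γ-secretase subunits, Aph1a and Aph1b encode alternative forms of the APH1 scaffold, which holds the complex together from its first assembly step. The brightest Aph1a probe set, 1424980_s_at, read 10.57, 10.54 and 10.51 on OP9-GFP, 10.18, 10.19 and 10.14 on OP9-DL1, and 10.69, 10.49 and 10.67 with CompoundE. The OP9-DL1 arrays lay below all 6 others, and the other groups overlapped. The difference was -0.37 ± 0.06 on OP9-DL1 (limma adjusted p = 4.53e-05), a 1.30-fold lower level, and 0.45 ± 0.06 with CompoundE (adjusted p = 4.66e-06). The other 2 Aph1a probe sets moved the same way and further, by -0.64 and -0.67 on OP9-DL1 and by 0.84 and 0.86 with CompoundE. All 3 were called in both comparisons under every one of the alternative settings that measured them.

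Aph1b had 2 probe sets of its own. The brighter, 1435793_at, read 7.51, 7.46 and 7.78 on OP9-GFP, 7.20, 7.14 and 7.08 on OP9-DL1, and 8.27, 7.78 and 8.18 with CompoundE. The groups did not overlap, though OP9-GFP replicate 3 and CompoundE replicate 2 both read 7.78. It differed by -0.44 ± 0.12 on OP9-DL1 (limma adjusted p = 0.00887) and by 0.93 ± 0.12 with CompoundE (adjusted p = 7.1e-06). The first of these calls was lost without OP9-GFP replicate 3 (adjusted p = 0.0509, difference -0.34). The second probe set differed by -0.37 (adjusted p = 0.0542) and by 0.70 (adjusted p = 0.000547), with its OP9-DL1 values at 6.51, 6.92 and 6.38 below the lowest OP9-GFP value of 6.94.

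The probe set shared by Aph1b and Aph1c, 1429466_s_at, showed the largest difference of all 24. It read 9.33, 9.42 and 9.20 on OP9-GFP, fell to 7.79, 7.63 and 7.90 on OP9-DL1, and stood at 9.75, 9.88 and 9.79 with CompoundE. The 3 groups were fully apart. The fall on OP9-DL1 was 1.54 ± 0.08 on the log2 scale (2.91-fold, limma adjusted p = 6.13e-10) and the rise with CompoundE was 2.03 ± 0.08 (4.09-fold, adjusted p = 1.38e-11). It was the only member probe set with a called change of at least 2-fold, where 5.05% of all probe sets had one on OP9-DL1 and 8.13% with CompoundE. The fall was more than 3 times that of either probe set of Aph1b alone on the log2 scale; how much of its signal comes from Aph1c cannot be read from it, and no probe set of Aph1c alone was analysed here.

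Ncstn encodes nicastrin, the large glycoprotein that gates substrate entry to the complex. Its brightest probe set, 1418570_at, read 8.16, 8.22 and 8.16 on OP9-GFP, 7.85, 7.85 and 7.91 on OP9-DL1, and 8.57, 8.76 and 8.47 with CompoundE. The 3 groups did not overlap. The difference was -0.31 ± 0.08 on OP9-DL1 (limma adjusted p = 0.0069) and 0.73 ± 0.08 with CompoundE (1.66-fold, adjusted p = 1.43e-06). The dimmer Ncstn probe set, 1444532_at, was not called: its means were 6.33, 6.44 and 6.56, and its differences of 0.11 and 0.11 had adjusted p of 0.59 and 0.468. With both Ncstn probe sets averaged, the difference on OP9-DL1 was -0.10 and not called (adjusted p = 0.31), while that with CompoundE was 0.42 and still called.

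Psen2 encodes presenilin 2, a catalytic subunit. Its probe set 1425869_a_at read 8.34, 8.40 and 8.27 on OP9-GFP, 8.42, 8.30 and 8.32 on OP9-DL1, and 8.72, 9.03 and 8.67 with CompoundE. The first 2 groups overlapped, with a difference of 0.01 (95% interval -0.18 to 0.20), and the CompoundE arrays lay above all 6 others, by 0.46 ± 0.09 over OP9-DL1 (limma adjusted p = 0.000533). The other Psen2 probe set was near background, with means of 3.55, 3.47 and 3.77, and was not called in any comparison.

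Psenen encodes PEN2, the smallest subunit, which completes the complex. Its single probe set read 11.02, 11.02 and 11.14 on OP9-GFP, 10.91, 10.93 and 10.87 on OP9-DL1, and 11.16, 10.94 and 11.16 with CompoundE. The OP9-DL1 arrays were the 3 lowest, but the spread was of the same order as the changes. The difference on OP9-DL1 was -0.16 ± 0.06 and not called (limma adjusted p = 0.0536, 95% interval -0.28 to -0.03), and it was called without CompoundE replicate 2 (0.0112) or replicate 3 (0.0468). That with CompoundE was 0.18 ± 0.06 and called (adjusted p = 0.0187), and the call was lost without OP9-DL1 replicate 3 (0.0622), CompoundE replicate 1 (0.0878) or CompoundE replicate 3 (0.077). Equal values stood on 2 OP9-GFP arrays for Psenen and for the Ncstn probe set above, which lowers the spread behind their p-values.

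**Figure D2:**
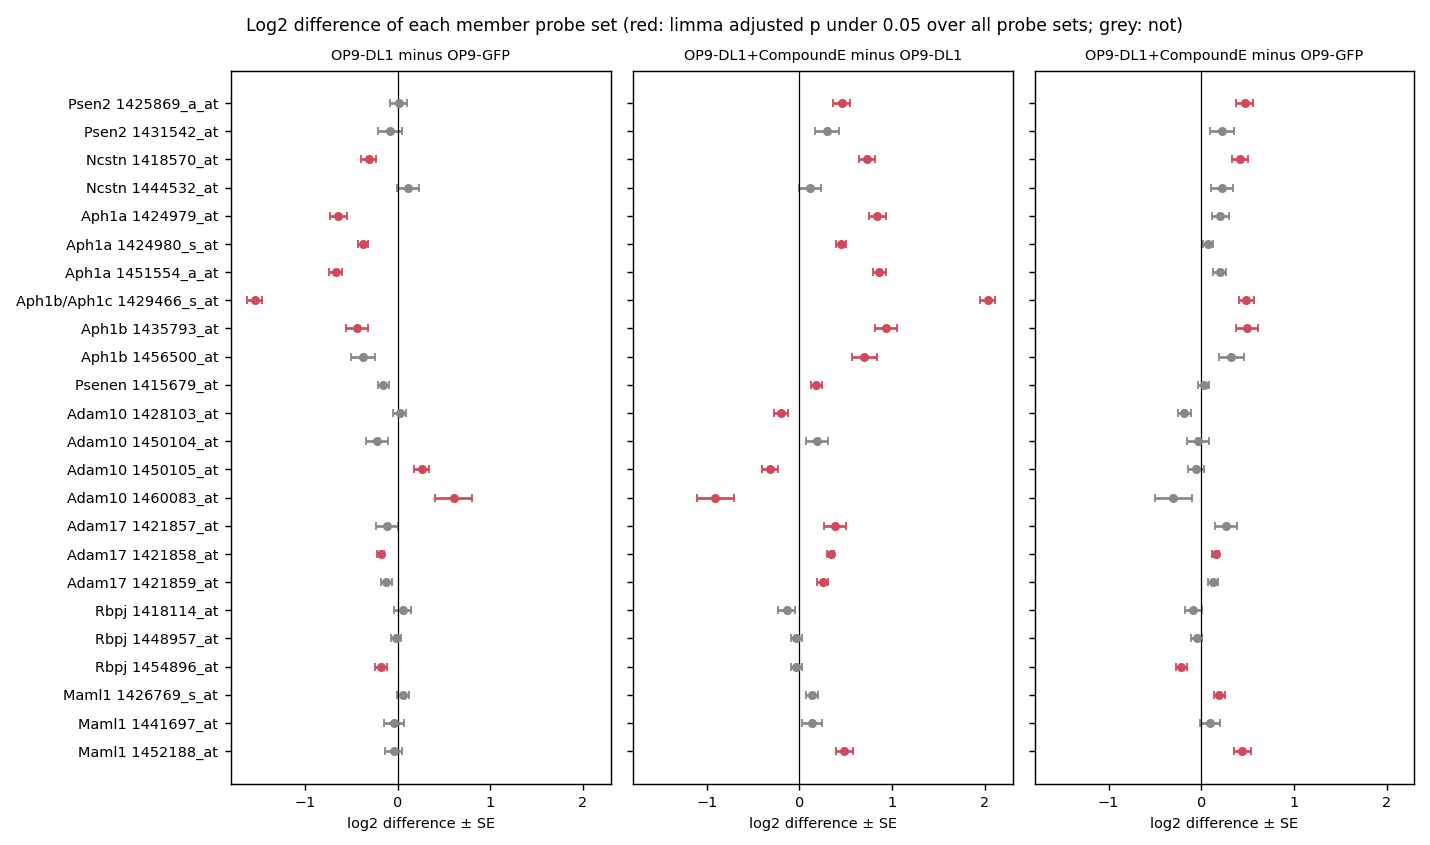
Log2 differences with their SE (horizontal axis) of the 24 member probe sets (vertical axis) in the 3 comparisons. Red points passed a limma adjusted p of 0.05 over all probe sets and grey points did not. The shared probe set of Aph1b and Aph1c stands farthest from 0, at -1.54 on OP9-DL1 and 2.03 with CompoundE.

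Adam17 and Adam10 encode the membrane-bound metalloproteases that shed receptor ectodomains, ADAM17 also being the enzyme that releases TNF. The brightest Adam17 probe set, 1421858_at, read 11.60, 11.62 and 11.63 on OP9-GFP, 11.41, 11.46 and 11.43 on OP9-DL1, and 11.72, 11.80 and 11.79 with CompoundE. No group overlapped another and the spread was narrow. The differences were small, -0.18 ± 0.04 on OP9-DL1 (limma adjusted p = 0.00182) and 0.34 ± 0.04 with CompoundE (1.26-fold, adjusted p = 2.69e-06). The other 2 Adam17 probe sets had differences of the same signs, -0.12 each on OP9-DL1, neither called, and 0.38 and 0.25 with CompoundE, both called. The call of 0.38 (1421857_at) was lost in 4 of 18 alternatives, without OP9-DL1 replicate 1 (0.0662) or 3 (0.0688) and without CompoundE replicate 1 (0.063) or 3 (0.0507).

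Adam10 encodes a sheddase that also cuts cadherins and ephrins. Its brightest probe set, 1428103_at, read 11.52, 11.49 and 11.69 on OP9-GFP, 11.63, 11.72 and 11.42 on OP9-DL1, and 11.36, 11.29 and 11.51 with CompoundE. The groups overlapped in every comparison. It differed by 0.02 on OP9-DL1 (95% interval -0.14 to 0.18) and by -0.20 ± 0.07 with CompoundE. The second difference was called (limma adjusted p = 0.0364). That call held in 13 of 20 gene-level alternatives, some of which used other Adam10 probe sets. Adjusted over all probe sets, the call (limma adjusted p = 0.0448) held in 7 of 18. Of single arrays, the gene-level call was lost without OP9-DL1 replicate 1 (0.119) or 2 (0.188) and without CompoundE replicate 1 (0.105) or 2 (0.142). The call over all probe sets was also lost without OP9-GFP replicate 1 (0.0587) or 2 (0.0519). Of the other Adam10 probe sets, 2 were higher on OP9-DL1 and lower with CompoundE: 1450105_at by 0.26 and -0.32 (adjusted p = 0.0392 and 0.00829), and 1460083_at by 0.61 and -0.91 (adjusted p = 0.0361 and 0.00173). The fall of 1460083_at with CompoundE was called in all 18 alternatives, while the other calls of these probe sets were lost without some single arrays. For 1460083_at the rise was not called without OP9-DL1 replicate 2 (0.204), whose value of 6.71 stood above 6.17 and 6.13, nor without OP9-GFP replicate 2 (0.0981) or 3 (0.137). For 1450105_at the rise was not called without OP9-GFP replicate 1 (0.14) or 2 (0.173), OP9-DL1 replicate 1 (0.0821) or 2 (0.185), or CompoundE replicate 1 (0.0506), and the fall not without OP9-DL1 replicate 2 (0.0521). The fourth probe set, 1450104_at, differed by -0.23 and 0.19 and was not called.

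Rbpj, the DNA-binding subunit of the nuclear complex, guides the complex to target genes. Its brightest probe set, 1454896_at, read 10.29, 10.27 and 10.35 on OP9-GFP, 10.15, 10.18 and 10.04 on OP9-DL1, and 10.14, 9.98 and 10.14 with CompoundE. The OP9-GFP arrays were the 3 highest and the other groups overlapped. It was called lower on OP9-DL1, at -0.18 ± 0.06 (limma adjusted p = 0.0276) and differed by -0.04 with CompoundE (adjusted p = 0.649, 95% interval -0.16 to 0.09). The call on OP9-DL1 was lost without OP9-GFP replicate 1 (0.0643) or 3 (0.0949) and without OP9-DL1 replicate 1 (0.0542) or 3 (0.126). The other 2 Rbpj probe sets differed by 0.05 and -0.02 on OP9-DL1 and by -0.14 and -0.03 with CompoundE, none called, and with all 3 averaged the difference on OP9-DL1 was -0.05 (adjusted p = 0.615).

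Maml1 encodes a Mastermind co-activator, which bridges the Notch intracellular domain and RBPJ. Its brightest probe set, 1426769_s_at, read 9.24, 9.32 and 9.39 on OP9-GFP, 9.40, 9.42 and 9.32 on OP9-DL1, and 9.50, 9.47 and 9.57 with CompoundE. OP9-GFP and OP9-DL1 overlapped, and the CompoundE arrays were the 3 highest. It differed by 0.06 on OP9-DL1 (limma adjusted p = 0.547) and by 0.14 with CompoundE (adjusted p = 0.083, 95% interval 0.01 to 0.27). A second probe set, 1452188_at, rose with CompoundE by 0.49 ± 0.09 (adjusted p = 0.000519), from 7.15, 7.21 and 7.17 to 7.69, 7.71 and 7.59, with no overlap. The third, 1441697_at, had means between 3.02 and 3.15, below background, and gives no measure of Maml1.

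CompoundE on OP9-DL1 was also set against OP9-GFP, to see where the genes stood beside the control stroma. These groups differ in both stroma and drug, and no array came from OP9-GFP with CompoundE. The parts of stroma and drug in this comparison therefore cannot be told apart. Here 5 of 9 genes were higher, where 12.1% of all genes were, and 1 was lower, where 10.6% were, and of the 24 probe sets 7 were higher and 1 lower, where 8.24% and 10.8% of all were. Aph1b stood 0.49 ± 0.12 above OP9-GFP (limma adjusted p = 0.00737), Psen2 0.47 ± 0.09 (0.00135), Ncstn 0.42 ± 0.08 (0.00151), Maml1 0.19 ± 0.06 (0.0313) and Adam17 0.16 ± 0.04 (0.00995). Rbpj was called lower, at -0.22 ± 0.06 (0.0151). Aph1a (0.07, 95% interval -0.05 to 0.19), Psenen (0.03, -0.10 to 0.15) and Adam10 (-0.18, -0.34 to -0.02) were not called. By group mean, the order was thus CompoundE, OP9-GFP, OP9-DL1 for Aph1b, Ncstn and Adam17, each step called. By the brightest probe sets, the first 2 did not differ beyond their spread for Aph1a and Psenen. Nor did OP9-GFP and OP9-DL1 for Psen2 and Maml1, nor OP9-DL1 and CompoundE for Rbpj. The other 2 Aph1a probe sets each stood 0.20 above OP9-GFP with no overlap, but were not called (limma adjusted p = 0.148 for 1424979_at and 0.0609 for 1451554_a_at). They were called in 1 and 5 of 18 alternatives. For Maml1 CompoundE stood above OP9-DL1 with no overlap, but the difference was not called. The Maml1 call was lost without OP9-GFP replicate 1 (0.153) or 2 (0.0782) or CompoundE replicate 1 (0.0615) or 3 (0.0817). That of Adam17 was lost without OP9-GFP replicate 1 (0.0511) and that of Rbpj without OP9-GFP replicate 3 (0.0602) or CompoundE replicate 2 (0.061), while Adam10 was called lower without CompoundE replicate 3 (0.0372).

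The scaling of the arrays mattered to the small differences. Before centring, the median of the 9096 genes above the median brightness, which include all 9 members, was 0.02 with CompoundE over OP9-DL1. Against OP9-GFP it was -0.001. Centring each array on its median moved the median of all genes with CompoundE over OP9-DL1 from 0.08 to 0.21, and the member counts from 6 higher and 1 lower to 7 and 0, Maml1 being gained and Adam10 lost. Over all 18193 genes the counts moved from 4574 higher and 3926 lower to 8041 and 2876. Against OP9-GFP the member counts moved from 5 and 1 to 6 and 0, Aph1a being gained and Rbpj lost. Over all genes those moved from 2208 and 1927 to 4466 and 1242. The changes in member counts thus came with a shift of the whole series. Relative to the median gene, a value that this centring does not alter, the differences with CompoundE over OP9-DL1 were 0.85 for Aph1b, 0.65 for Ncstn, 0.38 for Psen2, 0.37 for Aph1a, 0.26 for Adam17, 0.10 for Psenen, 0.06 for Maml1, -0.12 for Rbpj and -0.28 for Adam10. On OP9-DL1 over OP9-GFP they were -0.42 for Aph1b, -0.35 for Aph1a, -0.29 for Ncstn, -0.16 for Adam17, -0.16 for Rbpj, -0.14 for Psenen, 0.03 for Psen2, 0.04 for Adam10 and 0.08 for Maml1.

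Aph1a, Aph1b, Ncstn and Adam17 were all called lower on OP9-DL1 and higher with CompoundE, so the DNA before their start sites is shown, with that of Aph1c, which shares a probe set with Aph1b, and that of Rbpj, for contrast. The sequences are the 250 bases before the annotated start, from RefSeq on GRCm38.p6, read 5′ to 3′ on the gene's strand. Capitals mark TGGGAA, the core letters of the RBPJ motif, on either strand.
Aph1a (chr3:95893671-95893920, plus strand): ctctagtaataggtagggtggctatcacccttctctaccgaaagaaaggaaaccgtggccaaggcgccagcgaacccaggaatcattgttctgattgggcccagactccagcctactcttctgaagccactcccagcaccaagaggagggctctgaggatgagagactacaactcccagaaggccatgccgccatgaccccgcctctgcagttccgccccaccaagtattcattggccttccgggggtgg
Aph1b (chr9:66795424-66795673, minus strand): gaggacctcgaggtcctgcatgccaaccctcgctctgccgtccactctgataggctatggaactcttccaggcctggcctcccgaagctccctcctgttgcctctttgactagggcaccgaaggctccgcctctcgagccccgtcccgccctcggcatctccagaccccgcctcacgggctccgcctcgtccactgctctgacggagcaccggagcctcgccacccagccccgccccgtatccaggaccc
Aph1c (chr9:66834707-66834956, minus strand): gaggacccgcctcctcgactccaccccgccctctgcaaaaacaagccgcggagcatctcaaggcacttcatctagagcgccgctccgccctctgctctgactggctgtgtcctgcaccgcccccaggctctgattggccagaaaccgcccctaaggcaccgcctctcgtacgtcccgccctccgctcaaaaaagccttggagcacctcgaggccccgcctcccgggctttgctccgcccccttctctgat
Ncstn (chr1:172082750-172082999, minus strand): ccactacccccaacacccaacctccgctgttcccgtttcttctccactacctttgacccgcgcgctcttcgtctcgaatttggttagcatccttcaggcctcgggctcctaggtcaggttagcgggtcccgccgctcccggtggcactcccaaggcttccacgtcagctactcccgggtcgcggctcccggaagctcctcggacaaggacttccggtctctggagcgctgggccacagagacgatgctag
Adam17 (chr12:21373633-21373882, minus strand): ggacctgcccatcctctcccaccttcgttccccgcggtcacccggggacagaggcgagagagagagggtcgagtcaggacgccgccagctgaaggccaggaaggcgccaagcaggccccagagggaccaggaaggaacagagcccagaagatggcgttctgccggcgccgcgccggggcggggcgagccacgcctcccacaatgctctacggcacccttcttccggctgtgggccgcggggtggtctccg
Rbpj (chr5:53590096-53590345, plus strand): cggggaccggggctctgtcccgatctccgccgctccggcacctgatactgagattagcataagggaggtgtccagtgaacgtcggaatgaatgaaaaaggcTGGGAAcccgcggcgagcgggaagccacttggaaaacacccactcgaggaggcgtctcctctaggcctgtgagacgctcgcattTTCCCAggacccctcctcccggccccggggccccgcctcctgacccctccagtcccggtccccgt
No TGGGAA stood in this window of Aph1a, Aph1b, Aph1c, Ncstn or Adam17, and the Rbpj window held 2, the nearer of them 59 bases before the start. All 9 members matched the RefSeq table, with 12 start sites, of which 4 held TGGGAA, belonging to Rbpj, Psen2 and Psenen. The windows of Adam10 and Maml1, which like Rbpj lack the lower and then higher calls, held no TGGGAA. The 2 Rbpj windows overlap, and 1 site, 59 bases before the first start and 199 before the second, is counted in both. On the opposite strand these letters read TTCCCA. Of all 32851 promoter windows of the same length 21.6% held it. The core letters of the PU-box bound by the myeloid factor PU.1, GAGGAA, or TTCCTC on the opposite strand, stood in 2 of the 12, against 23.3% of all, and no match of the 2 motifs overlapped in the member windows. The windows of Aph1b and Aph1c, whose starts lie 39283 bases apart on chromosome 9, aligned with 57.2% identical columns, beside 52.2% for Aph1b and Aph1a. Letters in a window are a description and show nothing about binding.

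Genes that work around the same 2 cuts were then examined in 5 lists. Beside the list and marker counts below, 15.9% of all genes were higher and 16.7% lower on OP9-DL1. With CompoundE over OP9-DL1 25.1% were higher and 21.6% lower. Some of the list counts are near these shares. List counts below from arrays centred on their medians have another background. After that centring, 8041 of all 18193 genes were higher and 2876 lower with CompoundE over OP9-DL1. Of 35 measured substrates of γ-secretase or the sheddases other than Notch receptors, 8 were higher and 14 lower on OP9-DL1, and 17 were higher and 12 lower with CompoundE over OP9-DL1 (medians -0.10 and 0.17, beside -0.02 and 0.08 over all genes). Trem2, a lipid receptor of macrophages, fell by 3.64 and rose by 3.72, Lrp1, an endocytic receptor, fell by 1.76 and rose by 2.13, and Il6ra, the interleukin 6 receptor, fell by 1.28 and rose by 1.67 (limma adjusted p at most 1.05e-11). Of 22 regulators of the sheddases and of γ-secretase assembly, 5 were higher and 8 lower on OP9-DL1, and 11 higher and 5 lower with CompoundE (medians -0.14 and 0.22). The metalloprotease inhibitors Timp3, Reck and Timp2 rose on OP9-DL1 by 1.19, 1.57 and 0.49 and fell with CompoundE by 1.94, 1.09 and 0.27. Furin, the convertase that matures Notch receptors and ADAM precursors, went the other way, by -0.46 and 0.61, as did Gsap, encoding the γ-secretase activating protein, by -0.29 and 0.95. The 8 lower regulators became 5 without OP9-GFP replicate 2 or OP9-DL1 replicate 3.

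Of 15 other proteases of the ADAM, BACE and signal peptide peptidase families, 2 were higher and 4 lower on OP9-DL1, and 4 higher and 2 lower with CompoundE (medians 0.12 and 0.11). With arrays centred, 8 were higher with CompoundE. Adam8, a sheddase of leukocytes, fell by 2.17 and rose by 2.44, Adam15 fell by 1.26 and rose by 1.47, and Adam23, which lacks protease activity, rose by 0.66 and fell by 0.59. Each of these differences was larger than that of Adam10 or Adam17 by its brightest probe set. Of 25 genes of Notch receptor maturation and traffic, 2 were higher and 5 lower on OP9-DL1 and 10 higher and 4 lower with CompoundE (medians -0.06 and 0.08). Lfng, a Fringe glycosyltransferase that modifies Notch receptors, fell by 1.35 and rose by 1.67, the Deltex gene Dtx4 fell by 1.36 and rose by 0.94, and Nedd4, a ubiquitin ligase, rose by 0.71 and fell by 1.08. With arrays centred the counts of this list with CompoundE were 17 and 2, and the 5 lower on OP9-DL1 became 2 without OP9-GFP replicate 1. The 4 lower with CompoundE became 2 without OP9-DL1 replicate 1 or 2, and the 2 higher on OP9-DL1 became 1 without OP9-GFP replicate 1 or 2 or OP9-DL1 replicate 1 or 2.

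Nuclear cofactors switch the RBPJ complex between activation and repression. Of 23 measured co-activators and co-repressors of the Notch complex, 3 were higher and 1 lower on OP9-DL1 and 3 higher and 8 lower with CompoundE (medians 0.05 and -0.05). With arrays centred on their medians the latter counts were 10 and 2, where 8041 of all 18193 genes were higher and 2876 lower. The direction of these list counts thus depends on the scaling, as does the balance over all genes. The 8 also became 3 without OP9-DL1 replicate 1, 4 without OP9-DL1 replicate 3, and 5 without CompoundE replicate 2 or 3. Hdac2, a histone deacetylase, rose by 0.37 and fell by 0.51, and Fbxw7, which marks the Notch intracellular domain for degradation, rose by 0.35 and fell by 0.22. The co-repressor Ctbp2 was called lower on OP9-DL1, at -0.21 (limma adjusted p = 0.0448), and this call was lost without OP9-GFP replicate 1 or 3, any OP9-DL1 array, or CompoundE replicate 1. With CompoundE over OP9-DL1 Ctbp2 was not called, at 0.06 (adjusted p = 0.562). With CompoundE the co-repressor Tle3 rose by 0.26 and the histone methyltransferase Kmt2d fell by 0.29.

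**Figure D3:**
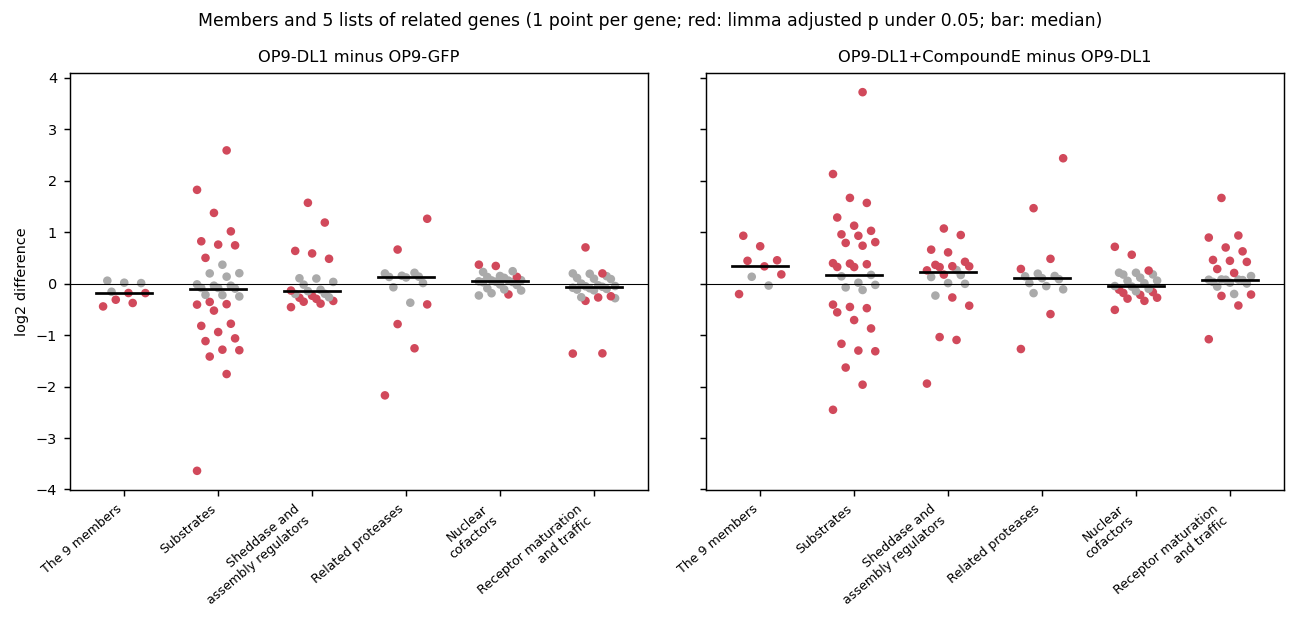
Log2 differences (vertical axis) of the 9 members and of 5 lists of related genes (horizontal axis) on OP9-DL1 over OP9-GFP (left) and with CompoundE over OP9-DL1 (right). Each point is 1 gene, red where the limma adjusted p was below 0.05, and bars are list medians, which run from -0.18 to 0.12 on the left and from -0.05 to 0.34 on the right.

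Cell markers moved with these genes. Of 16 macrophage markers, 15 were lower on OP9-DL1 and 13 higher with CompoundE (medians -1.64 and 1.69). Their summed level was 15.16 to 15.21 (log2 of summed linear values) on OP9-GFP, 14.09 to 14.11 on OP9-DL1 and 15.30 to 15.37 with CompoundE, the same order of groups as for Aph1b, Ncstn and Adam17, with C1qa at background throughout. Of 28 feeder markers, 21 were higher on OP9-DL1, and 24 were lower and 1 higher with CompoundE, with summed levels of 14.83 to 14.86, 15.45 to 15.47 and 14.76 to 14.82 and Lum and Dcn at background throughout. All 16 measured megakaryocyte markers were higher on OP9-DL1 and lower with CompoundE, and 10 of 14 mast cell markers were higher and 1 lower on OP9-DL1. Of 11 early T cell markers 8 were higher on OP9-DL1 and 8 lower with CompoundE, with Cd3e, Ptcra and Rag1 at background throughout, and of 14 granulocyte markers 7 were higher and 6 lower on OP9-DL1. Csf1r and Mertk stand in both the macrophage and the substrate list, Vcam1 in both the feeder and the substrate list, Gp6 in both the megakaryocyte and the substrate list, and Timp3 in both the feeder and the regulator list. Among the marker lists, Kit is also a mast cell marker and Thy1 both a feeder and an early T cell marker. The part of these markers in the member differences was not tested. Of 9 measured markers of LSK and blood cells, 1 was higher and 6 lower on OP9-DL1, and 7 were higher and 1 lower with CompoundE (medians -0.35 and 0.61). Kit, a marker by which the cells were sorted, was the 1 higher and then the 1 lower, while Flt3, a receptor of early progenitors, fell by 1.51 and rose by 1.05. Kit stood at 8.94 ± 0.15 (SD, n = 3) for OP9-GFP, against 10.22 ± 0.16 for OP9-DL1 and 8.14 ± 0.11 under CompoundE, and Ly6a was not analysed here. Ptprc, the pan-leukocyte marker, read 11.53, 11.38 and 11.59.

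**Figure D4:**
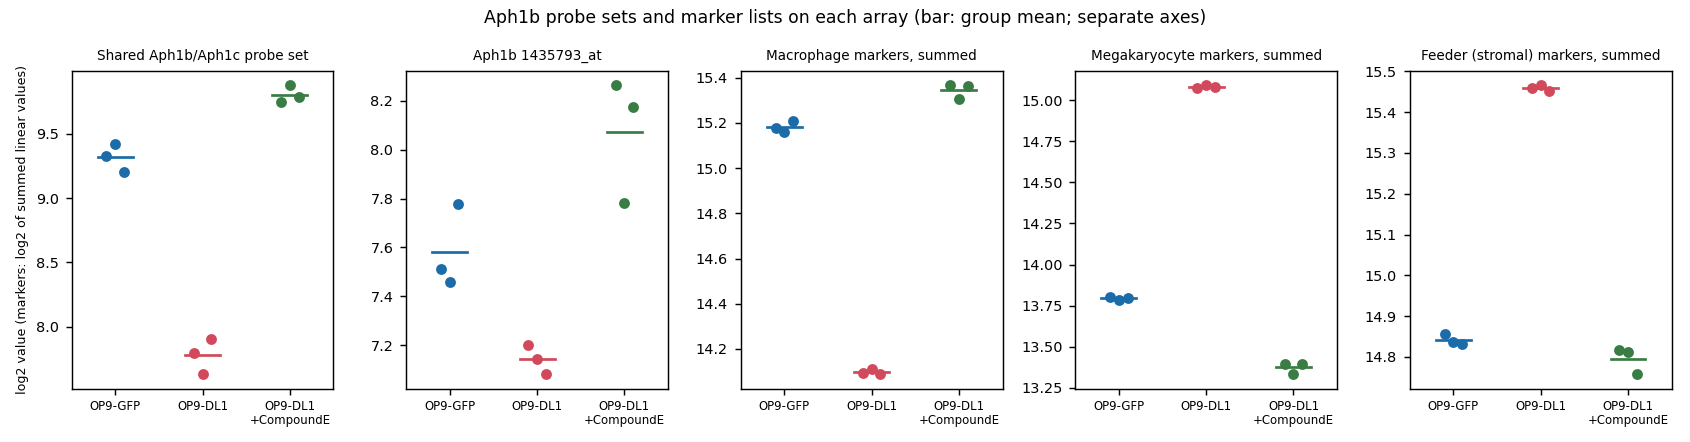
Deposited log2 values of the shared Aph1b and Aph1c probe set and of the brighter Aph1b probe set, and the log2 summed levels of macrophage, megakaryocyte and feeder markers (vertical axes, each with its own range that does not start at 0), on each array of the 3 groups. Bars are group means. The OP9-DL1 arrays are lowest for both probe sets and for the macrophage markers (14.09 to 14.11) and highest for the megakaryocyte and feeder markers (15.45 to 15.47 for the latter).

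Among 3750 genes with a mean of at least 5 and group means that span at least 0.5, those most like Ncstn over the 9 arrays were Siglece, a sialic acid receptor of myeloid cells (Pearson r = 0.997), Capn1, encoding a calpain protease (0.996), and Stk19 (0.994). Those most like Aph1b were Sgms2, a sphingomyelin synthase gene (0.987), Fgl2, a fibrinogen-like gene (0.986), and Rnd3 (0.982). The other members spanned less than 0.5 and were not compared in this way. The 9 points are 3 groups of 3, so such an r mostly restates the group means: Siglece differed by -0.59 on OP9-DL1 and 1.30 with CompoundE, and Sgms2 by -0.40 and 0.76.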

How the data were processed

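Each of the 9 arrays, grouped by sample title, came as log2 values per probe set, deposited by the authors. The submitters' processing notes name MAS5 and GCRMA 2.4.1 without saying what either did, so it is unknown which of them made the values. Median values of the arrays were 4.78 to 4.94, no arrays were identical, and 3976 genes (21.9%) held equal values within a group, which lowers their spread. The labels' protocols state that 25 ng of RNA was amplified. Arrays have no read depth, and their number limits the precision (median SE of a difference 0.10).

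Names came from the platform annotation, updated by Entrez ID to RefSeq symbols (GRCm38.p6): 34945 of 45101 probe sets had 1 symbol, 932 several and 9160 none, and 64 were controls. limma 3.58.1 under R 4.3.3 fitted all 9 arrays without covariates, with lmFit and trended eBayes, once over genes (the probe set of highest mean) and once over probe sets. The fitting code was first tested on simulated data with known differences, for OP9-DL1 over OP9-GFP. It called 47 of 67 differences of 1.5-fold (70.1%), 62 of 67 of 2-fold and 66 of 66 of 4-fold. Of its 182 calls 7 were false. Smaller differences can thus be missed. Far fewer genes differed there than were called in these data, so the shares do not carry over directly.

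Members, lists and tests were chosen with earlier results of these data known. The text names all members, per list up to 3 called genes of lowest p for OP9-DL1 over OP9-GFP and for CompoundE over OP9-DL1, and the 3 most alike genes per member spanning at least 0.5 (clone-like symbols skipped), plus markers where needed. Intervals are 95% intervals of the fit. Alternatives were log2(linear value + 32), quantile normalization, median centring, both filters on dim genes, dropping genes with equal values, averaging probe sets or taking the most variable, untrended eBayes, fitting 6 arrays at a time, blocking on the replicate number, and omitting each array. Their use on list counts was added after the data were seen.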

Additional observations from a re-analysis of the deposited data

How the results depend on the processing

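Of the 18 called differences of member genes, none changed sign under any of the 20 alternatives, and 9 were never lost where measured: both Aph1a calls, those of Psen2 and Ncstn with CompoundE against either group, of Aph1b with CompoundE against either group, and of Adam17 against OP9-DL1. With log2(linear value + 32), 0 members were lower with CompoundE over OP9-DL1 in place of 1. With centred arrays the counts were 0 members and 1 probe set lower in that comparison, 1 probe set higher on OP9-DL1, and 13 probe sets higher, 0 lower and 0 members lower with CompoundE over OP9-GFP; uncalled values that changed sign were -0.028 for Psen2 and -0.020 for Adam10 on OP9-DL1 and 0.10 for Rbpj with CompoundE over OP9-DL1. With probe sets averaged, 3 members were lower on OP9-DL1 and 0 with CompoundE over OP9-GFP, and Psen2 stood at -0.034 and Maml1 at -0.00835 on OP9-DL1. With the most variable probe set, 1 member was higher on OP9-DL1 (Adam10) and Maml1 stood at -0.044. Without the intensity trend, 0 probe sets were higher on OP9-DL1, 0 members lower with CompoundE over OP9-DL1, and 3 members higher, 0 lower and 0 probe sets lower over OP9-GFP. Counts over all genes moved as well with centred arrays, as given above. The cause of these shifts was not tested.

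Leaving out each array in turn gave, on OP9-DL1, 3 to 6 members lower, 0 to 2 probe sets higher, Psen2 at -0.023 to 0.045 and Adam10 at -0.045 to 0.11. With CompoundE over OP9-DL1 it gave 0 to 1 members and 1 to 3 probe sets lower and Rbpj at -0.078 to 0.017, and over OP9-GFP 3 to 5 members higher, 0 to 2 lower, 0 to 2 probe sets lower and Psenen at -0.012 to 0.10. Equally numbered arrays showed no clear pairing: deviations from the group means correlated at -0.11 to 0.12, with 2 of 9 pairs above 0.1. An array correlated best with its own number in 4 of 18 cases. The deviations of the 3 arrays of a group are tied to each other, so this check could miss a weak pairing. With the replicate number as a block, 5 members were lower on OP9-DL1 and 6 higher with CompoundE, as without it, 4 in place of 5 were higher over OP9-GFP (Maml1, adjusted p = 0.0524), and 2823 genes were higher on OP9-DL1 in place of 2888. Of 600 list counts under alternatives, 528 stayed within 1.5 times.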
